A study of Mus musculus with 8 samples.

Results

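The 10 genes described here encode the 5 NF-kB subunits and 5 feedback genes of the pathway. They were taken by gene symbol from 22520 protein-coding genes measured by mRNA-seq in cells isolated as liver endothelial cells (ECs). Defining endothelial markers were low in these cells, as given below. The subunits were Nfkb1, Nfkb2, Rel, Rela and Relb, and the feedback genes were Nfkbia, Nfkbie, Nfkbiz, Tnfaip3 and Birc3. All 10 symbols were found once, and all 10 were among the 11391 genes that were tested, namely those with a signal of 1 or higher in 4 or more libraries. Rel reached that level only through the LRP1 eKO libraries, since its signal was below 1 in the 4 WT libraries and 1.00 or higher in the 4 LRP1 eKO libraries.

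LRP1 eKO mice were LRP1f/f; Cdh5-CreER+/-, and WT mice were littermates with the genotype LRP1f/f; Cdh5-CreER-/-, so both groups carried floxed alleles of Lrp1, a large endocytic receptor. CreER is an inducible recombinase, driven here by the promoter of the endothelial gene Cdh5. The WT mice lacked CreER, and an effect of CreER itself and one of Lrp1 loss cannot be told apart here. The labels give the strain as C57BL/6, the age as postnatal day 14 and the cells as liver microvesicular cells. ECs were selected with beads carrying an antibody to PECAM-1. Each group had 4 libraries, and the labels do not state that each library came from its own animal, so the p-values measure only the spread between these libraries.

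NF-kB is a family of dimeric transcription factors that inhibitors of the IkB family hold in the cytoplasm until a kinase complex marks those inhibitors for degradation. The canonical arm acts mainly through Rela, Rel and the p50 product of Nfkb1, and the non-canonical arm acts through Relb and the p52 product of Nfkb2. In ECs the pathway is known for the induction of adhesion molecules, chemokines and tissue factor in response to cytokines, and several of its target genes, among them Nfkbia, Tnfaip3 and Birc3, encode regulators that feed back on the pathway itself.

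The deposited signal was quantile normalized, a step that makes the sorted values of the libraries almost equal. Sums per library therefore ranged only from 484445 to 485947, and depth is unknown. Lrp1 had signals of 56.2 to 85.1 in WT and 2.16 to 6.01 in LRP1 eKO libraries (log2 fold change -3.66, adjusted p in limma = 2.8e-06). The defining endothelial markers were low, with Pecam1 between 1.53 and 3.85 and Cdh5 between 1.26 and 4.99 over the 8 libraries, and Col1a1, a collagen gene of stellate cells and fibroblasts, was between 326 and 500.0. The sum of 10 endothelial markers was 33.9 to 38.7 in WT and 41.9 to 63.6 in LRP1 eKO libraries, and 2 of the 7 tested were higher. For 8 markers of liver sinusoidal ECs the sum was 7.44 to 11.2 in WT libraries and 31.7, 7.93, 28.3 and 19.3 in LRP1 eKO replicates 1 to 4, all 4 tested had a higher LRP1 eKO mean, and 1 of them (Oit3, which passed the filter only through the LRP1 eKO libraries) passed the test and 2-fold. The sum of 13 macrophage and Kupffer cell markers was 113 to 222 in WT libraries and 736, 52.8, 672 and 394 in LRP1 eKO replicates 1 to 4. All 9 tested macrophage markers had their higher mean in the LRP1 eKO group, 1 of them passed the test, and the defining Kupffer cell markers Clec4f and Timd4 were listed at 0 in every WT library. The sum of 8 hepatocyte markers was 1449 to 1513 in WT and 601 to 886 in LRP1 eKO libraries, and that of 5 skeletal muscle markers was 21.1 to 37.6 and 3.50 to 4.19. Sums of 9 stellate and fibroblast markers overlapped, at 2001 to 2312 and 1756 to 2212, and 2 of the 7 tested (Dcn and Lum) were lower without overlap. Of 9 neutrophil markers 8, and of 10 lymphocyte markers 10, were below 1 in every library. The 1 neutrophil marker tested was called higher in LRP1 eKO libraries, with a log2 fold change of 0.66 and overlapping groups.

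Tnfaip3, Nfkbia and Rel were higher and Nfkb2 and Relb were lower in LRP1 eKO than in WT libraries at a limma adjusted p below 0.05. The other 5 genes, Nfkb1, Rela, Nfkbie, Nfkbiz and Birc3, did not pass this threshold. Of all 11391 genes tested, 19.0% were called higher and 22.2% lower at this threshold, 41.2% in all, and 5 of 10 is near that background. None of the 10 passed the additional threshold of a 2-fold change, which 0.869% of all genes passed upwards and 0.790% downwards. The median log2 fold change of the 10 genes was 0.06, against -0.0095 for all genes tested, and the median of the absolute values was 0.16, against 0.17. Fold changes were computed from log2(signal + 1), and for genes with low signals, such as Rel, they come out smaller than the ratio of the signals. In these bulk libraries, fewer cells of a type and less RNA per cell cannot be told apart.

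**Figure D1:**
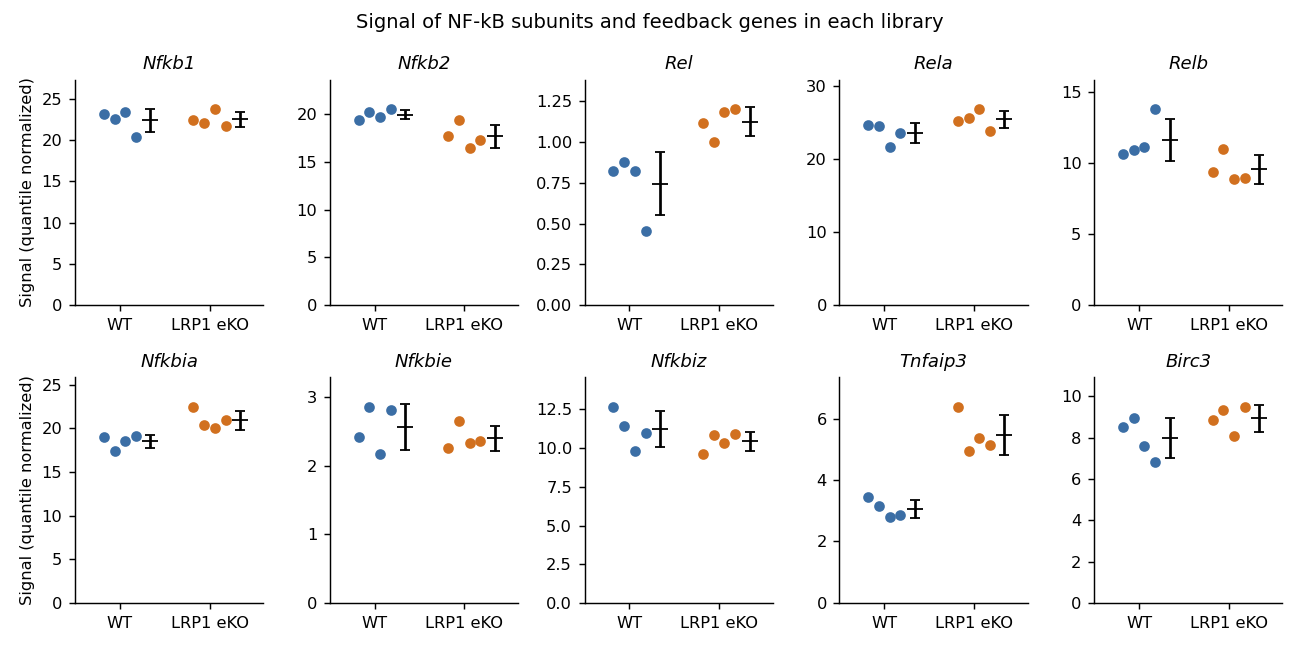
Signal (quantile normalized, linear axis from 0) of each of the 10 genes in the 4 WT and 4 LRP1 eKO libraries, 1 point per library in the order of the replicate numbers, with the mean and SD of each group beside the points. The 4 LRP1 eKO points of Tnfaip3 lie between 4.94 and 6.38, above the WT points, which lie between 2.79 and 3.46, and those of Nfkb1 lie within the same span as the WT points apart from 1 slightly higher point at 23.7.

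Sequence near RefSeq start sites is shown for 4 of the 10 genes, those with a match to the strict motif described next. The genes of this family are themselves known targets of NF-kB. By the gene spans given below, which come from another annotation, the stretches of Tnfaip3 and Nfkb2 lie within these genes. RefSeq start sites on GRCm38.p6, taken as windows of 250 bases before to 50 bases after each site, were found for 7 of the 10 genes. A strict form of the kB motif, to which NF-kB dimers bind, was searched on both strands (3 G, any 2 bases, 3 T and 2 C), and capitals mark its matches, written 5′ to 3′ on the strand of the gene. In Tnfaip3, Rel and Nfkbia the match lies on the opposite strand, so that it reads as its reverse complement.
Tnfaip3, chr10:19015411-19015530, minus strand: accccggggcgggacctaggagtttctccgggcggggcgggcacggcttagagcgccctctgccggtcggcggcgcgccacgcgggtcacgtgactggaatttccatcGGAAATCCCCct
Rel, chr11:23770971-23771089, minus strand: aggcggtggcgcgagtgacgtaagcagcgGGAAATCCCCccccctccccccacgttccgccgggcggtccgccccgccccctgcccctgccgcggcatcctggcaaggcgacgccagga
Nfkbia, chr12:55492648-55492767, minus strand: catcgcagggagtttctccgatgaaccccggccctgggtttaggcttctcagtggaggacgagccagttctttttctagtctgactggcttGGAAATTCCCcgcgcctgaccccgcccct
Nfkb2, chr19:46304716-46304745, plus strand: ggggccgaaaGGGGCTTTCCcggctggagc
Nfkb2, chr19:46305695-46305724, plus strand: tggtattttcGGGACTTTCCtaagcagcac

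The matches of Tnfaip3 and Rel have the same 10 bases, and that of Nfkbia differs from them. Counted from the start site, the first base of the match lies at -12 in Tnfaip3, -91 in Rel and -29 in Nfkbia, and at -11 and -225 from 2 start sites of Nfkb2. The latter match of Nfkb2 also begins at position 11 from another of its start sites, with that site counted as position 1. The strict motif was present for 4 of the 7 genes with a window and for 1.89% of all 27025 genes with a window. A loose form (3 G, any 5 bases and 2 C), which includes every match of the strict one, was present for all 7 genes, namely these 4 and Rela, Nfkbie and Birc3, and for 53.5% of all genes with a window. These matches describe letters in the windows and say nothing of binding in these cells.

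Among the subunits of the canonical arm, only Rel passed the test. Rel, on chromosome 11 of GRCm38 (23736847 to 23770970, minus strand), encodes c-Rel, a subunit with a transactivation domain that is best known from lymphocytes and macrophages. Its signals were 0.824, 0.876, 0.823 and 0.455 in WT replicates 1 to 4 and 1.12, 1.00, 1.18 and 1.20 in LRP1 eKO replicates 1 to 4. Every LRP1 eKO library was above every WT library, and WT replicate 4 was the lowest of all. The mean went from 0.745 ± 0.194 to 1.13 ± 0.0904 (SD, n = 4 each), which is 151% of WT, with a log2 fold change of 0.29 (SE 0.090, adjusted p in limma = 0.027). These signals were close to the lower limit of the test, and a gene that passed it only through 1 group had to differ between the groups. With the filter replaced by a mean signal of 0.5 over all libraries, an alternative chosen after seeing the data, the log2 fold change was 0.29 (adjusted p in limma = 0.028). The call of Rel was lost without LRP1 eKO replicates 1, 3 or 4, with an adjusted p in limma of 0.056, 0.067 and 0.070.

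Rela and Nfkb1, which encode the p65 and p50 proteins of the most common NF-kB dimer, did not pass the test. Rela (chromosome 19, 5637483 to 5648130, plus strand) had signals of 24.6, 24.5, 21.6 and 23.5 in WT and 25.2, 25.6, 26.8 and 23.9 in LRP1 eKO replicates 1 to 4. Of the LRP1 eKO libraries, 3 were above all WT libraries and replicate 4 lay within the WT range. The log2 fold change of Rela was 0.11, with a 95% confidence interval from -0.02 to 0.23 (adjusted p in limma = 0.157). Nfkb1 (chromosome 3, 135584655 to 135691547, minus strand) had signals of 23.1, 22.6, 23.4 and 20.4 in WT and 22.4, 22.1, 23.7 and 21.7 in LRP1 eKO libraries. Its group means, 22.4 ± 1.38 and 22.5 ± 0.886 (SD, n = 4 each), differed by less than the SD of either group. The 95% confidence interval of its log2 fold change ran from -0.11 to 0.13.

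Both genes of the non-canonical arm were lower in LRP1 eKO libraries. Nfkb2 (chromosome 19, 46304320 to 46312385, plus strand) encodes p100, which is both an inhibitor of Relb and the precursor of p52. The signals of Nfkb2 were 19.4, 20.2, 19.7 and 20.5 in WT and 17.7, 19.3, 16.5 and 17.3 in LRP1 eKO replicates 1 to 4. The groups did not overlap, but LRP1 eKO replicate 2 and WT replicate 1 nearly met. Its mean went from 19.9 ± 0.506 to 17.7 ± 1.21 (SD, n = 4 each), 88.7% of WT, with a log2 fold change of -0.17 (SE 0.055, adjusted p in limma = 0.034). Relb (chromosome 7, 19606217 to 19629438, minus strand) encodes the subunit that pairs with p52. It had signals of 10.6, 10.9, 11.2 and 13.8 in WT and 9.42, 11.0, 8.88 and 8.96 in LRP1 eKO replicates 1 to 4. LRP1 eKO replicate 2 lay within the WT range, the other 3 lay below all WT libraries, and WT replicate 4 was the highest of all. Its mean went from 11.6 ± 1.47 to 9.57 ± 0.996 (SD, n = 4 each), 82.2% of WT, with a log2 fold change of -0.26 (SE 0.091, adjusted p in limma = 0.047), while the exact two-sided permutation test gave p = 0.0857. When single libraries were left out, Nfkb2 passed in 3 and Relb in 2 of 8 fits. The call of Nfkb2 was lost without WT replicates 2 or 3 or LRP1 eKO replicates 1, 3 or 4 (adjusted p in limma = 0.075, 0.061, 0.071, 0.10 and 0.084), and that of Relb without these or WT replicate 4 (0.057, 0.068, 0.092, 0.116 and 0.115 in the same order, and 0.075). Relb also lost its call when every gene was tested without a filter (adjusted p in limma = 0.082).

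The inhibitors of the IkB family were split, with Nfkbia higher and Nfkbie and Nfkbiz not past the threshold. Nfkbia (chromosome 12, 55489410 to 55492647, minus strand) encodes IkBa, the inhibitor that is resynthesized rapidly after NF-kB activation and that carries it out of the nucleus. It had signals of 19.0, 17.4, 18.6 and 19.1 in WT and 22.4, 20.3, 20.0 and 21.0 in LRP1 eKO libraries. Every LRP1 eKO library was above every WT library, with replicate 1 the highest. The mean went from 18.5 ± 0.766 to 20.9 ± 1.09 (SD, n = 4 each), 113% of WT, and the log2 fold change was 0.17 (SE 0.052, adjusted p in limma = 0.027). The call of Nfkbia held in 4 of 8 fits that left out 1 library, and was lost without WT replicates 2 or 3 or LRP1 eKO replicates 1 or 4, with an adjusted p in limma of 0.075, 0.053, 0.077 and 0.061.

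Nfkbie (chromosome 17, 45555703 to 45563169, plus strand) encodes IkBe, an inhibitor that acts later than IkBa. Its signals were 2.42, 2.86, 2.17 and 2.81 in WT and 2.26, 2.66, 2.33 and 2.36 in LRP1 eKO libraries, all within the WT range, with a log2 fold change of -0.06 (95% confidence interval -0.24 to 0.11, adjusted p in limma = 0.535). Nfkbiz (chromosome 16, 55811375 to 55838899, minus strand) encodes IkBz, a nuclear protein that works with p50 dimers at part of the target genes. Its signals were 12.7, 11.4, 9.84 and 11.0 in WT and 9.61, 10.9, 10.3 and 10.9 in LRP1 eKO libraries. The groups overlapped, and the log2 fold change was -0.09 (95% confidence interval -0.26 to 0.07, adjusted p in limma = 0.331).

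Tnfaip3 showed the largest difference of the 10 genes. Tnfaip3 (chromosome 10, 19000910 to 19015657, minus strand) encodes A20, a ubiquitin-editing enzyme that terminates signaling to NF-kB downstream of TNF and Toll-like receptors. Its signals were 3.46, 3.14, 2.79 and 2.86 in WT and 6.38, 4.94, 5.38 and 5.13 in LRP1 eKO replicates 1 to 4. The lowest LRP1 eKO library was well above the highest WT library. Its mean went from 3.06 ± 0.303 to 5.46 ± 0.640 (SD, n = 4 each), 178% of WT. The log2 fold change was 0.67 (SE 0.083, 95% confidence interval 0.48 to 0.85, adjusted p in limma = 2.5e-04), and the exact two-sided permutation test gave p = 0.029, the smallest value possible with groups of 4. Leaving out each library in turn gave log2 fold changes between 0.60 and 0.71 with an adjusted p of at most 0.0012. Birc3 (chromosome 9, 7848699 to 7873186, minus strand) encodes cIAP2, a ubiquitin ligase that joins the TNF receptor complex and limits cell death. Its signals were 8.54, 8.95, 7.62 and 6.81 in WT and 8.86, 9.32, 8.06 and 9.49 in LRP1 eKO libraries. They overlapped, and the log2 fold change was 0.15 (95% confidence interval -0.04 to 0.34, adjusted p in limma = 0.175).

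Of the 10 genes, 3 had LRP1 eKO signals entirely above the WT signals and 1 had them entirely below, where 20.0% of all genes tested did so upwards and 22.5% downwards, 42.6% in all. The 4 genes were Tnfaip3, Nfkbia and Rel above and Nfkb2 below. Rel passed the filter only through the LRP1 eKO libraries, so its lack of overlap was fixed in advance and is no result.

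**Figure D2:**
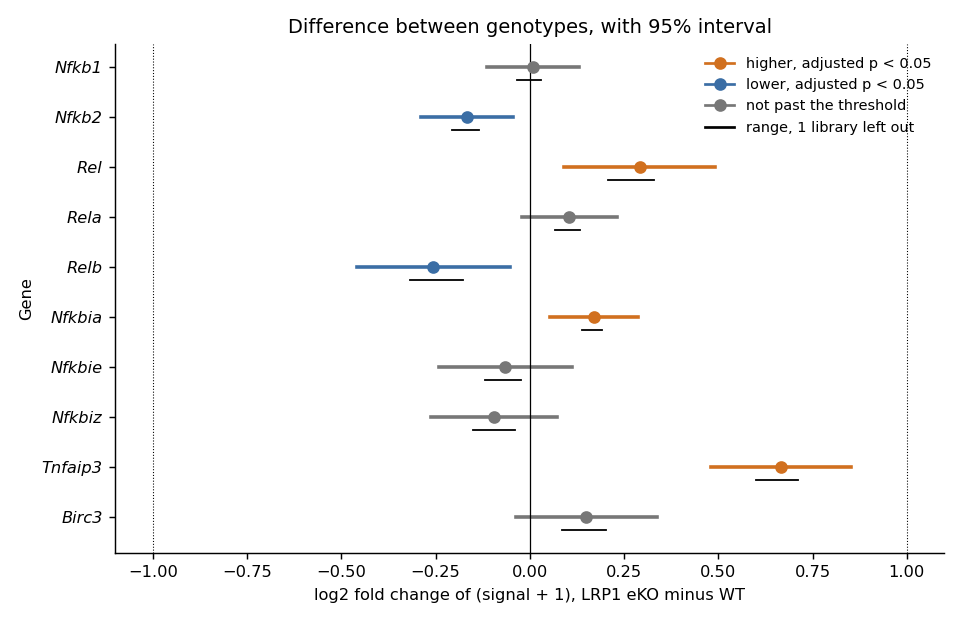
Log2 fold change of (signal + 1), LRP1 eKO minus WT, with its 95% confidence interval for each of the 10 genes. The thin black line under each gene spans the values obtained when 1 library is left out, and dotted lines mark a 2-fold change. Tnfaip3 lies at 0.67, and the other 9 genes lie between -0.26 and 0.29.

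Members of a pair with like function were set against each other within each library, as the log2 ratio of (signal + 1). That of Relb to Rela went from -0.96 ± 0.19 to -1.32 ± 0.14 (SD, n = 4 each), a difference of -0.36 without overlap of the groups. The groups nearly met, at -1.137 in WT replicate 1 and -1.148 in LRP1 eKO replicate 2. The exact two-sided permutation test gave p = 0.029, and 0.107 after adjustment over the 5 ratios computed. The ratios of Nfkb2 to Nfkb1, Nfkbie to Nfkbia and Nfkbiz to Nfkbia differed by -0.17, -0.23 and -0.26 (adjusted p = 0.107 each, exact permutation test), and that of Rel to Rela by 0.19 (adjusted p = 0.143, exact permutation test). The Rel to Rela value depended on the pseudocount, at 0.46 with 0.1 and 0.0024 with 5 in place of 1. None of the 5 differences passed the threshold after adjustment.

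Libraries of 1 genotype also differed in these genes. Over the 8 libraries, and after the mean of each group was subtracted, Nfkb2 and Relb moved together (Pearson's r = 0.79), and Rel and Relb moved oppositely (r = -0.93), the most extreme of the 45 pairs. These 2 values were 0.94 and -0.92 without WT replicate 4, and 0.64 and -0.98 without LRP1 eKO replicate 2. A correlation of Nfkb1 with Rel of 0.79 fell to 0.11 without WT replicate 4. Such values describe 8 libraries whose signals share a normalization, and they carry no test.

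Macrophage genes moved with some of the 10 genes. Nfkb2 and Relb had the lowest within-group correlations with the mean log2 signal of the 9 tested macrophage markers (r = -0.86 and -0.71 over 8 libraries), and LRP1 eKO replicate 2, the library with the lowest macrophage signal, had the highest Nfkb2 and Relb of its group. Without that library the correlations were -0.32 and -0.53. Tnfaip3 and Rel had positive values (r = 0.56 and 0.46), and Nfkbia had 0.24. Without LRP1 eKO replicate 2 these were 0.50, 0.56 and -0.11, and Rel had 0.79 without WT replicate 4. Nfkb1, which was not called, had 0.39 over the 8 libraries and 0.82 without LRP1 eKO replicate 2. In LRP1 eKO replicate 2, which is only 1 library and had a lower macrophage signal than any WT library, Tnfaip3 was 4.94, above all WT libraries. Nfkbia was 20.3 in that library, also above all WT libraries. Nfkb2 was 19.342, just below the lowest WT value of 19.355, and Relb was 11.0, within the WT range. With the macrophage mean as a covariate, Tnfaip3 had a log2 fold change of 0.61 (adjusted p in limma = 6.6e-04). The other 4 called genes then had adjusted p-values in limma of 0.069 (Nfkbia, log2 fold change 0.16), 0.075 (Rel, 0.24), 0.108 (Nfkb2, -0.11) and 0.148 (Relb, -0.16). What part macrophages or other cells had in these results was not tested. The sums of hepatocyte and of skeletal muscle markers also differed between the genotypes without overlap.

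**Figure D3:**
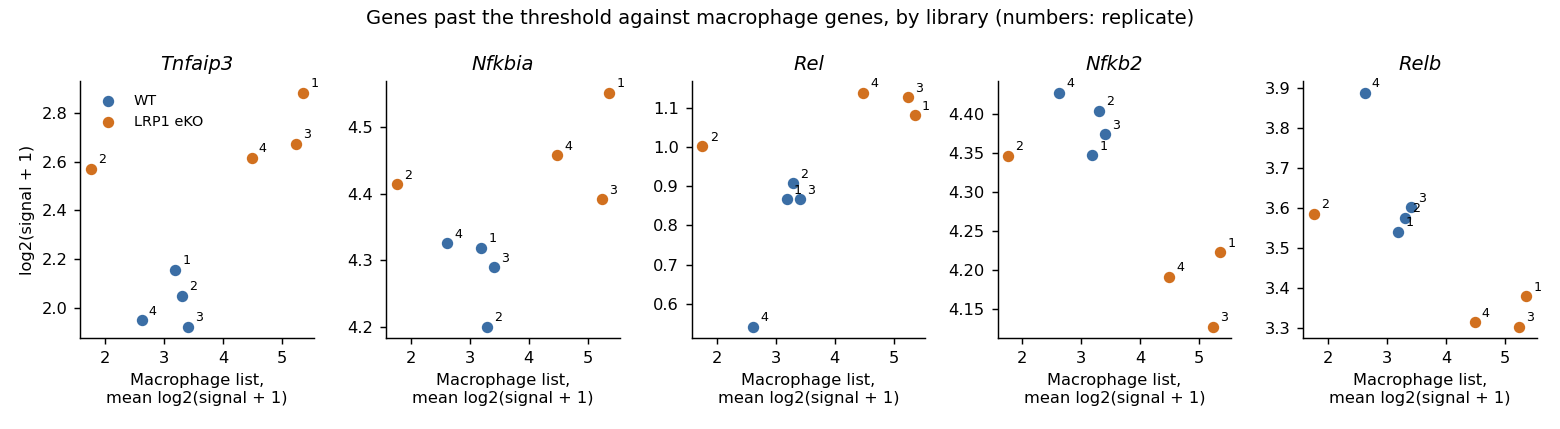
Log2(signal + 1) of the 5 genes past the threshold (vertical axes, each on its own range) against the mean log2(signal + 1) of the 9 tested macrophage markers (horizontal axis), 1 point per library with its replicate number. LRP1 eKO replicate 2 lies at the far left at 1.76, where Tnfaip3 and Nfkbia lie above all WT points and Relb lies among them. Rel also lies above them there, but it passed the filter only through the LRP1 eKO libraries, which fixed this in advance.

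The genes whose log2 signals followed those of Tnfaip3 most closely over the 8 libraries were Cebpg (r = 0.990) and Cd80 (r = 0.989). Rel was followed most closely by Pak2 (r = 0.998) and Qk (r = 0.995), Nfkbia by Cep250 (r = 0.987) and Prkar2b (r = 0.971), Nfkb2 by Dph3 (r = 0.990) and Rab3b (r = 0.984), and Relb by Glrx2 (r = 0.993) and Sirt5 (r = 0.986). For genes that differ between the genotypes, these correlations include the difference between the groups.

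The other genes of the pathway were counted in 5 lists by role. Of the 110 genes listed, 81 were tested and 39 of these were called, 27 higher and 12 lower, which is 48.1% against the background of 41.2%. Among 16 other inhibitors and brakes, 14 were tested, 4 were higher (Rnf11, Zc3h12a, Itch and Cyld) and 1 was lower (Nfkbil1), with a median log2 fold change of 0.06. The share called was 35.7%, against the same background of 41.2%. Rnf11 and Itch act in a complex with A20, and Cyld is a deubiquitinase. Rnf11 went from 37.8 ± 2.55 to 49.9 ± 1.49 (SD, n = 4 each, adjusted p in limma = 4.6e-04), and Itch had a log2 fold change of 0.27 (adjusted p in limma = 0.042).

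Among 30 kinases and adaptors, 28 were tested, with 6 higher, 2 lower and a median log2 fold change of 0.07. In all, 28.6% were called, against 41.2% of all genes tested. Chuk and Ikbkb, which encode both catalytic subunits of the IkB kinase complex, were among the higher genes. Chuk had a log2 fold change of 0.40 (adjusted p in limma = 0.0041), and its signal went from 16.1 ± 1.49 to 21.6 ± 2.05 (SD, n = 4 each). Ikbke, an IkB kinase-related enzyme, and Rnf31, the catalytic subunit of the linear ubiquitin ligase, had log2 fold changes of 0.33 and 0.44 (adjusted p in limma = 0.0035 and 0.0028). Traf5 and Myd88, adaptors of TNF family and Toll-like receptors, were lower, with log2 fold changes of -0.21 and -0.17 (adjusted p in limma = 0.023 and 0.040). Without LRP1 eKO replicate 1 or 3, 4 of these 28 genes were called instead of 8, and without LRP1 eKO replicate 3 or 4, 3 of the 14 inhibitors and brakes were called instead of 5.

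Of 20 receptors, 13 were tested, 4 were higher and 2 were lower, with a median log2 fold change of 0.13. Called were 46.2%, against 41.2% of all genes tested. The main TNF receptor gene, Tnfrsf1a, went from 115 ± 1.49 to 88.3 ± 6.21 (SD, n = 4 each, adjusted p in limma = 4.3e-04). Ltbr, the lymphotoxin receptor that engages the non-canonical arm, had a log2 fold change of -0.22 (adjusted p in limma = 0.0079). Tnfrsf12a, the receptor for TWEAK, went from 155 ± 0.581 to 193 ± 13.8 (SD, n = 4 each, adjusted p in limma = 0.0013), and the gene of its ligand, Tnfsf12, had a log2 fold change of 0.19 (adjusted p in limma = 0.024). Tlr3, a sensor of double-stranded RNA, had a log2 fold change of 0.54 (adjusted p in limma = 0.0013). Il18r1 had 0.73 (adjusted p in limma = 4.8e-05), but passed the filter only through the LRP1 eKO libraries.

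Ligands were mostly near 0. Of 16 ligand genes, 5 were tested, with 1 higher (Tnfsf12), 1 lower (Il18) and a median log2 fold change of -0.14. That is 40.0% called, against 41.2% of all genes tested. The signal of Tnf was at most 0.0434 in WT and 0.210 in LRP1 eKO libraries, that of Il1b was at most 0.0547, and Tnfsf14 and Cd40lg were listed at 0 in every library. Leaving out replicate 1 or replicate 3 of either group reduced the 2 called ligands to 1. Il18 went from 23.4 ± 1.94 to 15.0 ± 0.660 (SD, n = 4 each, adjusted p in limma = 8.7e-05).

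Of 28 target genes known from ECs, 21 were tested, 12 were higher and 6 were lower, with a median log2 fold change of 0.20. The share called was 85.7%, against 41.2% of all genes tested, in a list chosen with earlier results of these data known. The higher genes included F3, which encodes tissue factor, and Csf1, a macrophage growth factor. F3 went from 61.4 ± 5.14 to 137 ± 6.79 (SD, n = 4 each), past 2-fold, with a log2 fold change of 1.14 (adjusted p in limma = 1.5e-06). Csf1 went from 272 ± 37.0 to 456 ± 4.97 (SD, n = 4 each, adjusted p in limma = 1.7e-04). The lower genes included Cx3cl1 and Cxcl1, which encode chemokines, and Sod2, which encodes the mitochondrial superoxide dismutase, with log2 fold changes of -0.57, -0.40 and -0.31 (adjusted p in limma = 0.0018, 0.0023 and 0.0013). Icam1, an adhesion molecule, did not pass the test (log2 fold change 0.11, 95% confidence interval -0.04 to 0.26), and Il6 passed the filter only through the LRP1 eKO libraries.

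**Figure D4:**
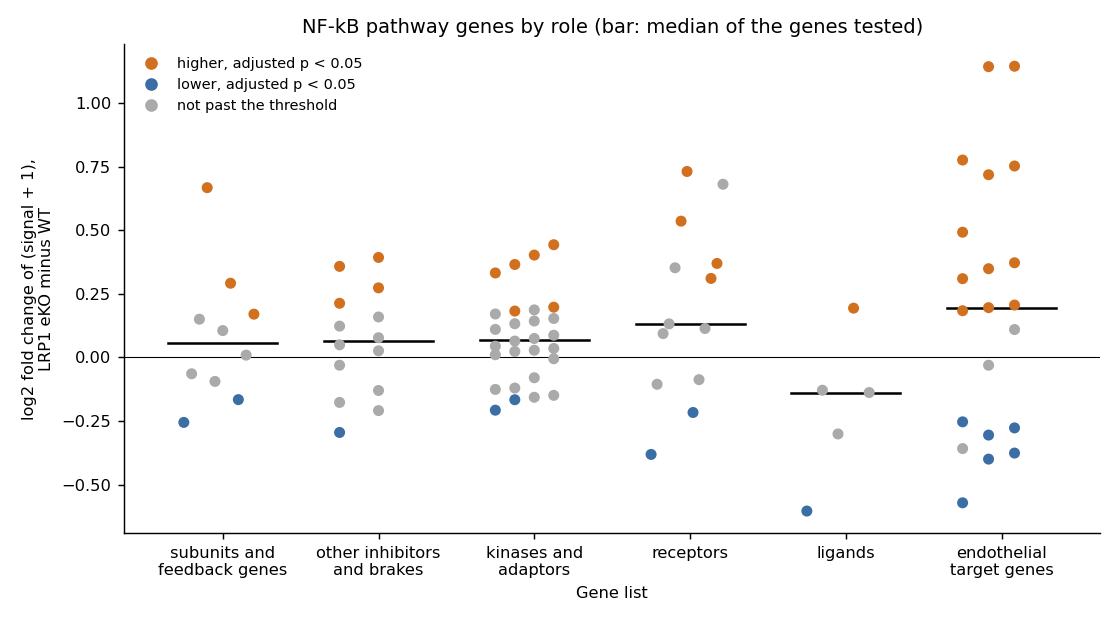
Log2 fold change of (signal + 1), LRP1 eKO minus WT, of each tested gene in the 10 subunits and feedback genes and in 5 further lists of pathway genes, 1 point per gene, with a bar at the median of each list. The medians lie between -0.14 for ligands and 0.20 for endothelial target genes, and points on both sides of 0 are called in every list.

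**Figure D5:**
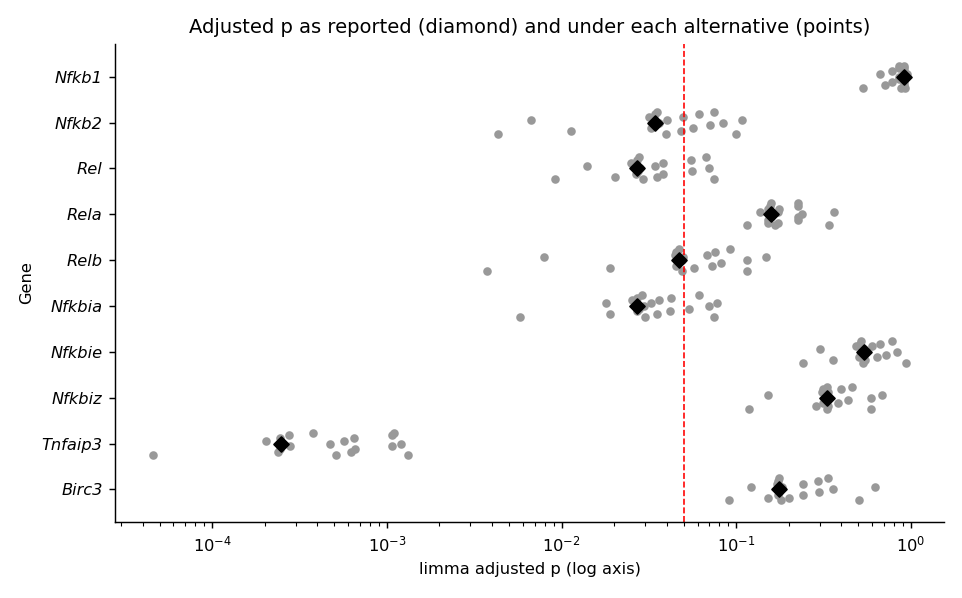
Limma adjusted p (log axis) of each of the 10 genes as reported (diamond) and under each alternative processing (points), with the threshold of 0.05 as a dashed line. All Tnfaip3 points lie at or below 0.0013, the points of Nfkb2, Rel, Relb and Nfkbia lie on both sides of the threshold, and those of the other 5 genes lie above it.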

How the data were processed

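Cells isolated as liver ECs, with low signals of the defining endothelial markers, were profiled by mRNA-seq in 4 WT and 4 LRP1 eKO libraries. For each library, the authors deposited quantile-normalized signal values per protein-coding gene. Its unit before normalization is not given in the sources used here. Signals of different genes, such as the markers, were set side by side as listed, and how far they can be compared is unknown. The submitters' processing notes name TopHat2, Cufflinks and mm10, whereas the study's methods describe STAR, featureCounts and edgeR counts, which were not used here. No interval for counting error could be given without depth.

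Log2(signal + 1) was tested with limma 3.58.1 in R 4.3.3 (genotype as the only term, mean-variance trend, Benjamini-Hochberg adjustment over all tested genes), and the calculation was tested on simulated data. Exact permutation tests were two-sided. The members and gene lists were chosen with earlier results of these data known. Named were all members, Lrp1, up to 3 genes with the smallest adjusted p in each direction of each pathway list, the first 2 markers of a list, genes that state its makeup, and up to 2 genes most correlated with a member, of which those of the 5 called members are given. Cyld, Ikbkb, Icam1 and the markers Dcn, Lum and Oit3 were named in addition, after their values were seen. Of the list genes, 2 were matched by gene identifier, and 1 muscle marker was not analysed here. Positions came from GENCODE M21 on GRCm38 and promoters from RefSeq on GRCm38.p6. Protein sequences were not used here. The result of 1 gene that this rule names is not reported here.

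Tried as alternatives were a pseudocount of 0.1 or 5, testing every gene, testing genes with a mean signal of 5 or higher, fitting without trend, with robust moderation or with array weights, centring on a mean with 30% trimmed from each end, a block for the replicate number, the macrophage mean as a covariate, an adjusted p under 0.01, and leaving out each library or WT replicate 4 and LRP1 eKO replicate 2 together. Figures were drawn with matplotlib 3.10.9.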

Additional observations from a re-analysis of the deposited data

Results flagged for a closer look

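In 78 groups of 4 libraries examined, 6 had 1 library set apart from the other 3, where chance gives about 3.9. The gap to the nearest library, as a share of the whole range of the group, was 0.875 for the low Rel value of WT replicate 4 and 0.841 for the high Relb value of the same library. WT replicate 4 was also set apart below the other WT libraries in Tlr3 (0.883) and Csf1 (0.844). LRP1 eKO replicate 1 was set apart below its group in Il18 (0.841) and in the ratio of Nfkbiz to Nfkbia (0.861). Without WT replicate 4, the log2 fold change of Rel was 0.21 and that of Relb was -0.18, with limma adjusted p-values of 0.027 and 0.075.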

How the results depend on the processing

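Tnfaip3 passed the threshold in all 19 alternatives that could be computed for it, while Nfkb2 passed in 13 of 20, Rel in 14 of 19, Relb in 11 of 20 and Nfkbia in 15 of 20, all with their direction kept. The pseudocount moved the log2 fold changes of low genes most, for Rel to 0.57 with 0.1 and 0.093 with 5, and for Tnfaip3 to 0.81 and 0.37. Nfkb1 changed sign without passing the threshold, to a log2 fold change of -0.0099 with array weights, -0.016 with the macrophage covariate and -0.026 without WT replicate 4 and LRP1 eKO replicate 2, and its values without 1 library ran from -0.034 to 0.031. Of the 10 genes, 3 were higher as reported, 1 with the macrophage covariate and at an adjusted p under 0.01, and 1 to 3 without 1 library. With a minimum mean signal of 5, only 7 of the 10 were tested, without Tnfaip3, Rel and Nfkbie, and 1 of these 7 was higher. The number of lower genes, 2 as reported, was 1 with no filter, 0 with the macrophage covariate and at an adjusted p under 0.01, and 0 to 2 without 1 library. Other inhibitors, 5 as reported, numbered 3 with no filter and with the macrophage covariate, 1 at an adjusted p under 0.01 and 3 to 7 without 1 library. Kinases and adaptors, 8 as reported, numbered 5 with the macrophage covariate, 3 at an adjusted p under 0.01 and 4 to 8 without 1 library. Receptors, 6 as reported, numbered 3 with a minimum mean signal of 5, where 7 rather than 13 were tested. Ligands, 2 as reported, numbered 4 with no filter, where 14 rather than 5 were tested. They numbered 1 at an adjusted p under 0.01 and 1 to 3 without 1 library. The counts of endothelial target genes ran from 14 to 19 without 1 library. With a pseudocount of 5, the ratios of Relb to Rela (-0.28), Nfkbie to Nfkbia (-0.17) and Nfkbiz to Nfkbia (-0.21) passed the threshold. The causes of these changes were not tested.

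Replicate numbers are shared by both groups, but same-numbered libraries did not deviate together (correlations of -0.0856, -0.13, 0.178 and 0.0378 for replicates 1 to 4), and the labels do not state a pairing. With the replicate number as a block, 2 of the 10 genes were higher and 0 were lower, and 1 ligand was called. Without depth, counting error cannot be separated from other spread, and quantile normalization removes a global shift between genotypes.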
